A study of Mus musculus with 6 samples.

Results

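The genes described here are 44 genes of fatty acid uptake, activation, mitochondrial import, oxidation, storage and release, taken as a list of gene symbols, out of 21888 genes tested on the arrays. Every gene had at least 1 probe on the array, 2 of them under an older symbol (Eci1 as Dci and Eci2 as Peci), and each gene was read by its brightest probe. In 43 of the 44 that probe was well above background on all 6 arrays. Slc27a6 was not tested: its only probe was well above background on 1 array, knockout replicate 2.

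The arrays compare H19 knockout mice with wild-type littermates, all adult and all 6 weeks after transverse aortic constriction (TAC), an operation that narrows the aorta and loads the left ventricle. H19 belongs to the imprinted long non-coding RNAs. Cardiomyocytes were isolated by retrograde perfusion and their RNA was hybridised to 1-colour Agilent arrays, 3 per genotype. Hearts without TAC were not analysed here, so each difference is one between genotypes under load. The part of H19 that the allele lacks, the cells in which it is lost and whether an array holds RNA of 1 animal or several are not given in the sources used here, so a p-value covers only the spread of the samples at hand.

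The heart draws most of its energy from long-chain fatty acids. Lipases release them from circulating triglyceride, transporters and binding proteins carry them into the cardiomyocyte, and acyl-CoA synthetases trap them as acyl-CoA. The carnitine shuttle, held back by malonyl-CoA, moves acyl groups into the mitochondrion, where the beta-oxidation spiral shortens them and hands electrons to the electron transfer flavoprotein. Excess fatty acid is stored as triglyceride in lipid droplets, which lipases reopen. Many of these genes are targets of PPAR nuclear receptors, and the pathway is known to decline in failing hearts.

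Wild-type arrays exceeded knockout arrays at the H19 probe by at least 32.4-fold, and that probe was well above background on 3 of 3 wild-type and 0 of 3 knockout arrays. Spots well above background made up 48.8% to 58.6% of an array, no spot was saturated, and correlations between arrays over genes ran from 0.981 to 0.990 within genotypes and also between them. Slide 1 held the first replicate of both genotypes and slide 2 held the rest. All 12 cardiomyocyte markers (such as Myh6 and Tnnt2) were well above background on all arrays, as were all 12 fibroblast and all 13 endothelial markers. Levels below are the log2 of the background-subtracted intensity minus the array's 75th percentile, differences are knockout minus wild type on that scale, and errors are SD with n = 3 per genotype or the standard error (SE) of the difference. Levels of different probes cannot be set against each other as amounts of RNA, so each is read only across arrays. The same holds for the summed levels of marker lists, in which the brightest probes weigh most.

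No gene of the pathway passed the test between the genotypes. Of the 43 tested genes, 0 passed an adjusted p of 0.05 (limma, Benjamini-Hochberg over all genes), against 0.0365% of all genes (0.00914% higher and 0.0274% lower in knockout). At an unadjusted p under 0.05 there were also 0, against 7.92% of all genes (1.06% higher and 6.86% lower). The smallest adjusted p was 0.713. The median difference was -0.06 (range -0.46 to 0.46), with 28 genes lower and 15 higher in knockout. Over all genes the median was -0.05, and 60.1% were lower. No pathway gene differed by 0.5 or more on the log2 scale, where 18.0% of all genes did. The 95% interval of the difference stayed within 1 log2 unit of 0 for 40 of the 43, against 72.3% of all genes, and it reached beyond for Acsl3 (1.21), Acads (1.16) and Ucp3 (-1.11). A difference of 2-fold therefore lay outside the interval for most of the pathway. A p that misses the threshold does not show that the genotypes are alike.

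The direction of the median depended on scaling and on single arrays. With scaling to the all-probe median the median of all genes moved from -0.05 to 0.37 and that of the pathway to 0.36, and 42 of the 43 genes then read higher in knockout. Over 18 settings the pathway median minus that of all genes ran from -0.06 to 0.11. Without knockout replicate 2 the pathway median was 0.03, and without knockout replicate 1 it was -0.16. Without wild-type replicate 3, Acsl3 (0.72), Ucp3 (-0.72) and Lipe (-0.57) had an unadjusted p under 0.05, and 0 genes of the pathway passed. Among all 21888 genes, 320 higher and 3671 lower had such a p in that setting. Array weights put most weight on wild-type replicate 2 and knockout replicate 3, and their estimate stopped before it converged. With them Slc27a4, Acsl3, Cpt1a, Ucp3 and Dgat2 passed, 5 of the 43, against 5725 of 21888 genes over the whole array. With weights estimated gene by gene 0 of the 43 passed.

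**Figure D1:**
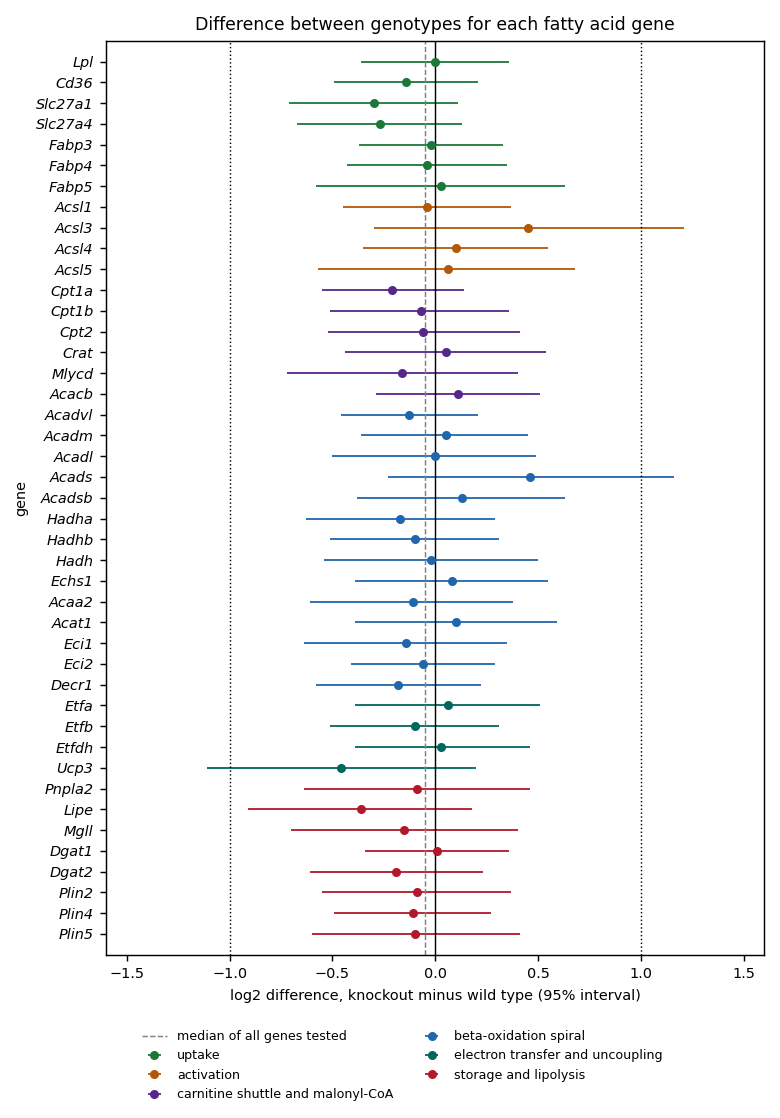
Log2 difference between knockout and wild type (x axis) for each of the 43 tested fatty acid genes (y axis), coloured by role, with 95% intervals as bars. All points lie between -0.46 and 0.46, every interval includes 0, and 3 intervals (Acsl3, Acads and Ucp3) cross the dotted lines at 1 log2 unit. The dashed line is the median of all genes, -0.05.

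Knockout arrays differed among themselves across much of the pathway. Knockout replicate 2 was the lowest array for 28 of the 43 genes (65.1%, against 28.3% of all genes), and knockout replicate 1 was the highest for 20 (46.5%, against 23.6%). The median deviation of the 43 genes from each gene's mean over the arrays was -0.03, 0.03 and 0.07 on the wild-type arrays and 0.17, -0.21 and 0.01 on the knockout arrays. The knockout arrays thus lay on both sides of wild type. On slide 1 the median difference was 0.18 and on slide 2 it was -0.17, against 0.00 and -0.12 over all genes. Cardiomyocyte markers gave -0.01, 0.06 and 0.05 in wild type and 0.14, -0.20 and 0.02 in knockout, and were lowest on knockout replicate 2 in 10 of 12 cases. Fibroblast markers gave 0.41, -0.36 and -0.79 in wild type and -0.50, 1.21 and 0.06 in knockout. Their summed level on the log2 scale ran from 7.89 to 8.88 in wild type and from 8.42 to 9.51 in knockout, with its highest value on knockout replicate 2, where all 12 were highest. The part of these markers in the pathway's values was not tested.

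**Figure D2:**
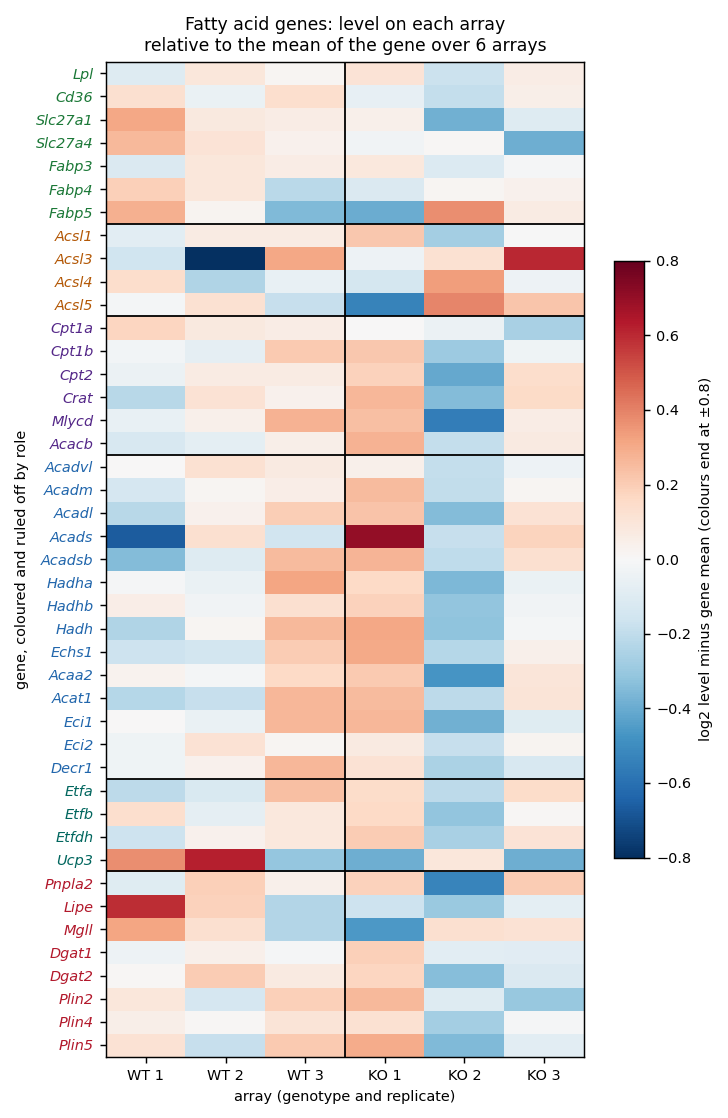
Log2 level of each of the 43 tested fatty acid genes (rows, ruled off by role) on each array (columns), minus the gene's mean over the 6 arrays, with red above and blue below that mean. The column of knockout replicate 2 holds the lowest value of 28 genes, while knockout replicate 1 holds the highest of 20.

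**Figure D3:**
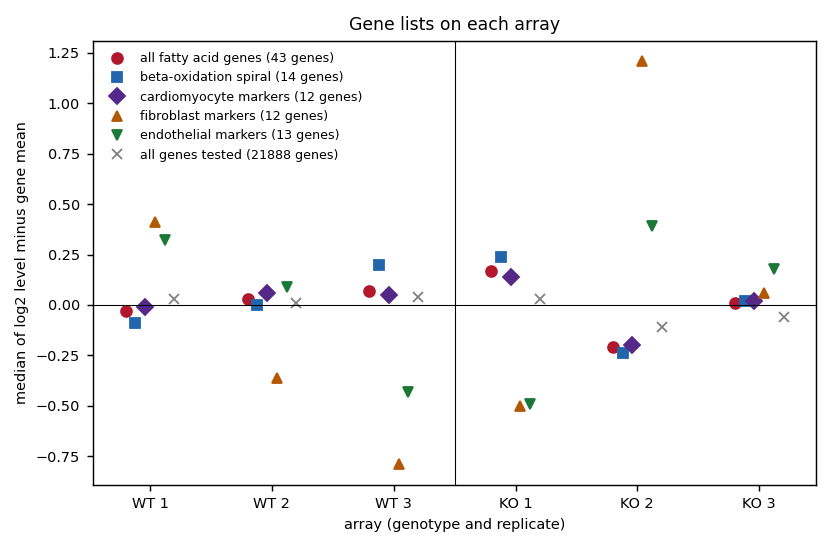
Median over the genes of each list of the log2 level minus the gene's mean (y axis) on each array (x axis). Fatty acid genes and cardiomyocyte markers lie within 0.24 of 0 on every array, with their lowest points on knockout replicate 2 (-0.21 and -0.20), where fibroblast markers reach 1.21.

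Genes that bring fatty acids into the cell gave a median difference of -0.04, with 5 of 7 tested genes lower. Lpl encodes lipoprotein lipase, which releases fatty acids from circulating triglyceride. Its probe read 8.29, 8.48 and 8.41 on the wild-type arrays and 8.50, 8.22 and 8.45 on the knockout arrays, a difference of 0.00 (SE 0.15, 95% interval -0.36 to 0.36). The genotypes overlapped fully, and a second Lpl probe gave 0.02. Fabp3, the cytosolic fatty acid binding protein of heart muscle, read 8.02, 8.23 and 8.20 in wild type and 8.22, 8.03 and 8.13 in knockout, a difference of -0.02 (SE 0.15). Its 2 probes, which overlap each other on chromosome 4, gave -0.02 and -0.03. Cd36, the main membrane transporter of long-chain fatty acids, differed by -0.14 (SE 0.15, 95% interval -0.49 to 0.21).

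In both Slc27a transporters tested among the 44 genes the 3 knockout arrays lay below the 3 wild-type arrays. Slc27a1 encodes a fatty acid transport protein of muscle and fat. It read 2.61, 2.38 and 2.36 in wild type and 2.34, 1.92 and 2.20 in knockout, and the difference was -0.30 (SE 0.17, 95% interval -0.71 to 0.11, adjusted p = 0.713). The gap between the lowest wild-type and the highest knockout array was small beside the spread within each genotype. Slc27a4 encodes a second transporter of the family. It read -2.54, -2.69 and -2.77 in wild type and -2.83, -2.79 and -3.19 in knockout (difference -0.27, SE 0.17, adjusted p = 0.76). The directions turned with the scaling: all-probe median scaling gave 0.12 for Slc27a1 and 0.15 for Slc27a4, and quantile normalization gave -0.32 and 0.10. With Cpt1a, described below, these were the 3 of 43 pathway genes whose genotypes did not overlap with knockout lower, a share of 6.98%, against 8.37% of all genes. None was higher without overlap, where 2.10% of all genes were. The probes lie on chromosome 8 from 74110256 to 74110315 (Slc27a1) and chromosome 2 from 29672983 to 29673042 (Slc27a4), on mm9; the exon or UTR that a probe covers is not given in the files.

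The binding proteins Fabp4 and Fabp5, known from endothelial cells, macrophages and fat, differed by -0.04 (SE 0.16) and 0.03 (SE 0.26). Fabp5 read 5.30, 5.04 and 4.66 in wild type and 4.62, 5.39 and 5.08 in knockout, so it was lowest on knockout replicate 1 and highest on knockout replicate 2. The 13 endothelial markers had a median deviation from each gene's mean of -0.49 on knockout replicate 1 and 0.39 on knockout replicate 2. The log2 of their summed level ran from 7.43 to 8.02 in wild type and from 7.41 to 8.14 in knockout. Macrophage markers were lower in all 12 of 12 tested cases, none past the threshold, with summed levels of 6.10 to 6.61 in wild type and 5.44 to 6.54 in knockout. The part of these markers in the Fabp values was not tested. In such samples, fewer cells of a type and less RNA per cell cannot be told apart. The probe of Slc27a6, a transporter described in heart, read -5.28, -4.86 and -6.18 in wild type and -5.69, -3.66 and -5.16 in knockout, mostly below the detection limit.

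Acyl-CoA synthetases, which activate fatty acids, gave a median of 0.08 in 4 genes, with 3 higher. Acsl1, the main synthetase of heart muscle, read 7.47, 7.62 and 7.62 in wild type and 7.77, 7.28 and 7.55 in knockout. Knockout arrays were both the highest and the lowest of the 6, and the difference was -0.04 (SE 0.17) with either of its 2 probes. Acsl3, a synthetase of the endoplasmic reticulum and lipid droplets, had the largest difference of the role at 0.45 (SE 0.32, adjusted p = 0.803). It read -0.90, -1.58 and -0.43 in wild type and -0.78, -0.62 and -0.14 in knockout, a wide spread in which wild-type replicate 2 was lowest. Without that array the difference was 0.15. Acsl4, which prefers arachidonic acid, read 3.08, 2.70 and 2.88 in wild type and 2.80, 3.27 and 2.90 in knockout (difference 0.10, SE 0.19). Acsl5 differed by 0.06 (SE 0.26). Acsl4, Acsl5 and Fabp5 were the 3 tested pathway genes that were highest on knockout replicate 2 (6.98%, against 13.9% of all genes). All 12 fibroblast markers were highest on that array, and their part in these values was not tested.

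The carnitine shuttle and the enzymes that set malonyl-CoA gave a median of -0.06, with 4 of 6 genes lower. Cpt1b, the carnitine palmitoyltransferase of muscle that controls entry into the mitochondrion, read 6.60, 6.55 and 6.83 in wild type and 6.84, 6.33 and 6.59 in knockout, a difference of -0.07 (SE 0.18, 95% interval -0.51 to 0.36). Its second probe gave -0.03, and the 2 probes of Cpt2, the enzyme of the inner membrane, gave -0.06 and -0.05. Acacb, the acetyl-CoA carboxylase that makes the malonyl-CoA blocking this step, read 6.84, 6.89 and 7.02 in wild type and 7.25, 6.78 and 7.04 in knockout (difference 0.11, SE 0.17). Its second probe gave 0.39 (SE 0.25), with 1.09 on slide 1 and 0.03 on slide 2, and the genotypes overlapped at both probes. Mlycd, which removes malonyl-CoA, differed by -0.16 (SE 0.24), and Crat, which exchanges short acyl groups with carnitine, by 0.05 (SE 0.21). For both Acacb and Mlycd the 95% interval included 0.

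Cpt1a encodes the liver form of the transferase, also known from fetal and stressed hearts. It read 1.68, 1.59 and 1.57 in wild type and 1.51, 1.46 and 1.25 in knockout, a difference of -0.21 (SE 0.15, 95% interval -0.55 to 0.14, adjusted p = 0.805), on chromosome 19 from 3385374 to 3385433. The genotypes did not overlap. A second Cpt1a probe, from 3384060 to 3384119, also did not overlap, with -1.48, -1.34 and -1.39 in wild type and -1.52, -2.06 and -1.96 in knockout, and its difference was -0.44 (SE 0.19, unadjusted p = 0.0495, adjusted p = 0.604 over 29990 probes). That difference was -0.04 on slide 1 and -0.64 on slide 2. With all-probe median scaling the first probe gave 0.21.

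The beta-oxidation spiral, the largest role with 14 genes, gave a median of -0.04, with 9 genes lower, 5 higher and 0 past the threshold. Acadvl, the very long-chain acyl-CoA dehydrogenase that starts the spiral, read 8.38, 8.50 and 8.45 in wild type and 8.42, 8.19 and 8.34 in knockout (difference -0.13, SE 0.14, 95% interval -0.46 to 0.21). Acadm and Acadl, the medium- and long-chain dehydrogenases, differed by 0.05 (SE 0.17) and 0.00 (SE 0.21). Acads, the short-chain dehydrogenase, had the largest difference of the role, 0.46 (SE 0.29, adjusted p = 0.762). It read 0.90, 1.69 and 1.41 in wild type and 2.27, 1.38 and 1.74 in knockout. The extremes were both on slide 1, where the difference was 1.37, while on slide 2 it was 0.01. Without knockout replicate 1 it was 0.23 and without wild-type replicate 1 it was 0.25.

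Hadha and Hadhb encode the alpha and beta chains of the trifunctional protein, which completes the long-chain spiral at the inner membrane. Hadhb read 8.37, 8.29 and 8.44 in wild type and 8.50, 8.0 and 8.29 in knockout, a difference of -0.10 (SE 0.17), and Hadha differed by -0.17 (SE 0.19). In both genes the lowest array was knockout replicate 2. The matrix enzymes for shorter chains, Hadh, Echs1 and Acaa2, differed by -0.02 (SE 0.22), 0.08 (SE 0.20) and -0.11 (SE 0.21). Acat1, which also serves ketone use, differed by 0.10 (SE 0.21), and Acadsb, a dehydrogenase of branched short chains, by 0.13 (SE 0.21). The auxiliary enzymes for unsaturated fatty acids, Eci1, Eci2 and Decr1, differed by -0.14 (SE 0.21), -0.06 (SE 0.15) and -0.18 (SE 0.17). All 3 were among the 11 of 14 spiral genes with their lowest value on knockout replicate 2.

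Electrons from the first step of the spiral pass to the flavoprotein of Etfa and Etfb and on to its dehydrogenase, Etfdh. Etfb read 8.49, 8.28 and 8.44 in wild type and 8.51, 8.04 and 8.36 in knockout (difference -0.10, SE 0.17). Etfa read 7.63, 7.72 and 8.08 in wild type and 7.99, 7.63 and 7.99 in knockout (difference 0.06, SE 0.19, and 0.06 with its second probe), and Etfdh differed by 0.03 (SE 0.18). The 3 genes thus differed by no more than 0.10 in either direction.

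Ucp3, the mitochondrial uncoupling protein of muscle and a known PPAR target, was the gene whose probes disagreed most in size. Its brighter probe, on chromosome 7 from 107630399 to 107630458, read -0.33, -0.08 and -1.01 in wild type and -1.09, -0.61 and -1.09 in knockout, a difference of -0.46 (SE 0.28, adjusted p = 0.744). The genotypes overlapped there, through wild-type replicate 3. The second probe, from 107634291 to 107634350, was well above background on 3 of 3 wild-type arrays and on 0 of 3 knockout arrays, with -2.59, -1.93 and -2.5 against -3.58, -4.07 and -3.72. The difference was -1.45 (SE 0.23), or 2.72-fold as a point estimate and not as a lower bound. Its size is uncertain, as no knockout signal was well above background. The probe did not pass the correction (adjusted p = 0.357 over 29990 probes, limma). It entered the test only through its wild-type signal, so it supports no difference for the gene. All 3 knockout arrays lay below all wild-type arrays at that probe, on slide 1 (-0.98) as on slide 2 (-1.68). With all-probe median scaling the brighter probe gave -0.03, and the mean of both probes, which includes the dim one, gave -0.95.

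Ucp3 and Cpt1a were the genes that had both a probe without overlap between genotypes and a core site of nuclear receptors in the window searched. For Ucp3 this was only the dim second probe, which entered the test through its wild-type signal and supports no difference for the gene. The sequences before the annotated starts of both genes are shown, a choice made after the values were seen. They are the 250 bases before the start in the RefSeq table of GRCm38.p6, 5′ to 3′ on the gene's strand, with the core site of PPAR and related nuclear receptors (AGGTCA, on either strand) in capitals. The Ucp3 stretch is chr7:100472741-100472990 (plus strand) and the Cpt1a stretch chr19:3323051-3323300 (plus strand).
Ucp3: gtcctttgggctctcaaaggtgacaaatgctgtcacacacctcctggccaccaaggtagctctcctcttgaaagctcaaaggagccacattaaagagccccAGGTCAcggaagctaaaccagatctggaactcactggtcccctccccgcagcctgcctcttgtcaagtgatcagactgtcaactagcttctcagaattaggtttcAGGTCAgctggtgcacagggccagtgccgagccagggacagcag
Cpt1a: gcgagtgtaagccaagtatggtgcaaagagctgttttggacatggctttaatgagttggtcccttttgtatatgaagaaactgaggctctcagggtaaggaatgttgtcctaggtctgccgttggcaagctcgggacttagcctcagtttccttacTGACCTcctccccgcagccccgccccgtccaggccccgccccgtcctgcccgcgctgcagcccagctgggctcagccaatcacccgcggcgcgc
Ucp3 held 2 core sites, beginning 149 and 44 bases before the start, and Cpt1a held 1, at 94 bases. Of the 44 genes, 33 were in the promoter table, with 39 starts, and 8 of the 39 held a core site (Cd36, Acadvl, Acadm, Echs1, Plin2 and Plin5 beside these 2), against 14.0% of all 32851 starts. The full DR1 site, a direct repeat of the core site with a single base between, which overlaps the core matches, was found before 0 of the 39 and before 0.0335% of all starts. A match is a description of these letters and not a measured binding site.

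Genes that store triglyceride and release it gave a median of -0.10, with 7 of 8 lower and none past the threshold. With all-probe median scaling this median was 0.32. Dgat2, which makes triglyceride, read 6.48, 6.67 and 6.54 in wild type and 6.64, 6.13 and 6.35 in knockout (difference -0.19, SE 0.18), and Dgat1 differed by 0.01 (SE 0.15). Plin5, which couples lipid droplets to mitochondria in heart muscle, read 6.56, 6.26 and 6.65 in wild type and 6.74, 6.09 and 6.36 in knockout (difference -0.10, SE 0.21). The droplet proteins Plin2 and Plin4 differed by -0.09 (SE 0.19) and -0.11 (SE 0.16). In all of these the genotypes overlapped.

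The lipases act in series on stored triglyceride. Pnpla2, the first of them, read 5.21, 5.50 and 5.35 in wild type and 5.49, 4.78 and 5.51 in knockout, so that the difference of -0.09 (SE 0.23) came with 1 low knockout array. Lipe, hormone-sensitive lipase, had the largest difference of the role at -0.36 (SE 0.23, adjusted p = 0.76). It read -0.92, -1.33 and -1.75 in wild type and -1.68, -1.81 and -1.59 in knockout, with overlap through wild-type replicate 3, and all-probe median scaling gave 0.06. Mgll, which splits off the last fatty acid, differed by -0.15 (SE 0.23), and its 3 tested probes gave -0.12 to -0.15. Lipe is also known from fat. White adipocyte markers were tested in 8 of 11 cases, and Lep and Slc7a10 were well above background on 0 arrays and Plin1 on 2. Of the 8, 7 were higher and 1 lower in knockout, none past the threshold. Their median deviation from each gene's mean was 0.52, 0.05 and -0.95 in wild type and 0.74, -0.64 and 0.58 in knockout. Their summed level, to which Thrsp gave most, ran on the log2 scale from 4.48 to 4.93 in wild type and from 4.76 to 4.96 in knockout. Their part in the Lipe value was not tested. Of the 12 pathway genes with more than 1 tested probe, 9 had probes within 0.2 log2 of each other, and the exceptions were Cpt1a, Acacb and Ucp3.

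**Figure D4:**
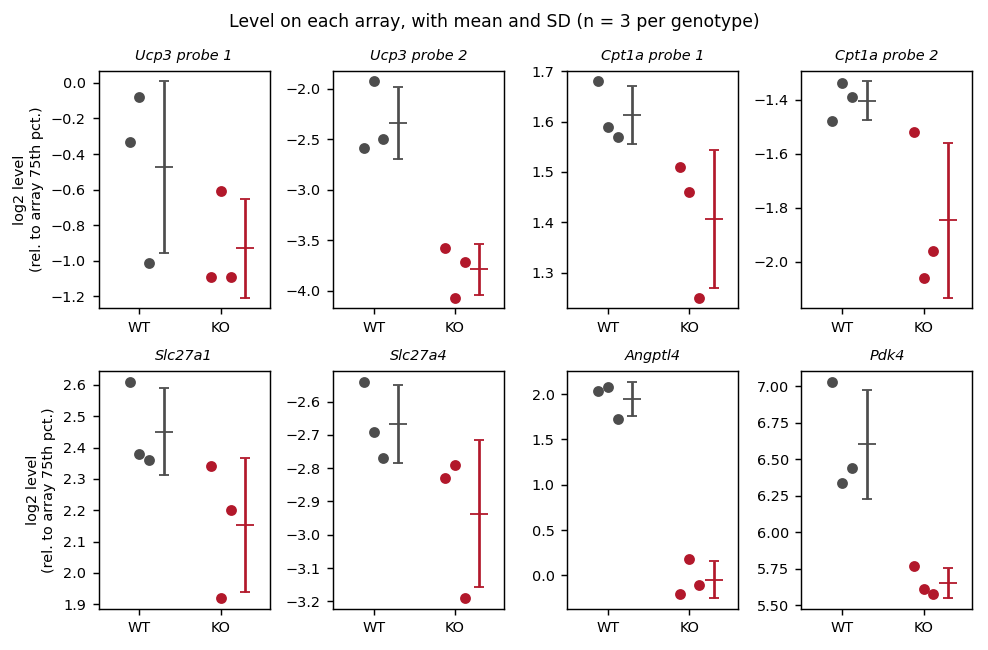
Log2 level relative to the array's 75th percentile on each array (points), with the mean and SD of each genotype (bars, n = 3), each panel on its own scale. Slc27a1, Slc27a4, both Cpt1a probes, the second Ucp3 probe, Angptl4 and Pdk4 do not overlap between genotypes, and the first Ucp3 probe does.

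Outside the 44, lists of the same biology held 1 gene past the threshold, against 0.0365% of all genes. The lists had 66, 20 and 9 tested genes, some of them shared. That gene, Angptl4, came from a list drawn up with results of these arrays known. Angptl4, which blocks lipoprotein lipase and is a known target of PPAR receptors, read 2.03, 2.08 and 1.73 in wild type and -0.21, 0.18 and -0.11 in knockout. The difference was -1.99 on the log2 scale (SE 0.18, adjusted p = 0.0433, limma), with -2.24 on slide 1 and -1.87 on slide 2. The call did not outlast the left-out arrays: 0 of these other genes passed without any 1 of the 6 arrays, with quantile normalization, with the deposited values, with the slide or the replicate number as a block, or without the filter on dim probes. Over the whole array 1 to 4 genes passed without 1 array, against 8 with all 6. With the alternative background correction, the trended robust prior, the mean of a gene's probes or gene-by-gene weights, 1 of these other genes passed. Lpl, which encodes the lipase that Angptl4 blocks, differed by 0.00. Of the markers of atrial cardiomyocytes, all 4 were well above background on all arrays, and Myl7 (-3.50), Sln (-4.82) and Myl4 (-2.78) did not overlap and were lower in knockout, with adjusted p from 0.462 to 0.578, while Nppa gave 0.04. The median deviation of the 4 from each gene's mean was 1.95, 2.45 and 0.31 in wild type and -1.02, -1.88 and -1.72 in knockout. Nppa gave most of their summed level, which therefore says little of the other 3. On the log2 scale that sum for the 4 markers ran from 8.46 to 8.63 in wild type and from 8.27 to 8.51 in knockout. Their part in the Angptl4 and Pdk4 values was not tested. Pdk4, the kinase that turns glucose oxidation down in favour of fatty acids and also a known PPAR target, read 7.03, 6.34 and 6.44 in wild type and 5.77, 5.61 and 5.58 in knockout, without overlap (difference -0.95, SE 0.21, adjusted p = 0.614).

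Of 14 listed PPAR targets outside the 44 genes 9 were tested, 8 of them lower, with a median of -0.39, where 60.1% of all genes were lower and their median was -0.05. With all-probe median scaling 4 of the 9 were lower and the median was 0.03, and without knockout replicate 2 it was -0.19. The list was drawn up with results of these arrays known, so it is not independent evidence of a direction. The untested ones were Fgf21, Vnn1, Cyp4a10, Cyp4a14 and Creb3l3. Some genes of this list, such as Acot1 and Ehhadh, are also among 69 other listed genes of fatty acid metabolism. Of those, 66 were tested, with 32 higher, 34 lower, a median of -0.01 and 0 past the threshold, while 1 higher and 3 lower had an unadjusted p under 0.05. The lower ones were Slc27a5 (-0.91, adjusted p = 0.546), a transporter best known from liver that was well above background on 3 wild-type arrays and 1 knockout array, Gpam (-0.43, adjusted p = 0.626), which starts triglyceride synthesis, and Acot1 (-0.72, adjusted p = 0.628), a thioesterase. Of 20 listed transcription factors and cofactors 9 were higher and 11 lower, with a median of -0.02 and 0 past the threshold. Ppara, Ppard, Pparg and Ppargc1a differed by -0.17 (SE 0.20), -0.08 (SE 0.18), 0.10 (SE 0.26) and -0.02 (SE 0.26).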

How the data were processed

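RNA of cardiomyocytes was read on 6 one-colour arrays, 3 per genotype. Per the submitters' processing notes, spots were read with Agilent Feature Extraction 10.7.3.1, and per the file headers the deposited processed signal is a background-subtracted intensity, with probe positions on mm9. The deposited value table also holds intensity values, with equal medians (69.7) and the same rank order as the scanner values. Here control and outlier spots were left out, spots of a probe averaged, and log2 values set against each array's 75th percentile. Probes well above background on at least 3 arrays were kept, the brightest per gene. Genotypes were compared with limma 3.58.1 (R 4.3.3; lmFit, eBayes, Benjamini-Hochberg adjustment), tested on simulated data. With 3 arrays against 3, an exact permutation test cannot give a p under 0.10, so none is given.

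Members and lists were chosen with earlier results of these data known. Values per array are given for members at an unadjusted p under 0.05 or without overlap, for the brightest 2 and for the largest difference of each role, and up to 4 genes per other list were named by smallest p. Others were chosen after their values were seen, namely second probes, Pnpla2, Fabp5, the PPAR genes and the synthesis genes. Alternatives covered background correction, normalization, scaling, the deposited values, filters, probe choice, the slide and the replicate number as blocks, a trended robust prior, array weights and leaving out each array.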

Additional observations from a re-analysis of the deposited data

How the results depend on the processing

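Of the 43 fatty acid genes, 0 passed under every alternative run except array weights, where 5 passed, against 5725 of all 21888 genes. That default estimate stopped before it converged, so weights estimated gene by gene were added after seeing the data, as was a fit of every probe. Of the 43, those at an unadjusted p under 0.05 numbered 2 with all-probe median scaling and 1 with the mean of a gene's probes (Ucp3, through its dim probe). They numbered 9 with array weights, 3 with gene-by-gene weights, 2 in the fit of every probe, and 0 to 3 without 1 array. Among all genes, array weights gave 2279 higher and 6048 lower at that p, and gene-by-gene weights 674 and 3878. The mean of a gene's probes gave 221 and 1613, and leaving out wild-type replicate 3 gave 320 and 3671. Over the whole array 8 genes passed, against 3 with quantile normalization, 3 with the deposited values, 119 with scaling to the median, 1 without the filter on dim probes, 1 with the slide as a block, 5725 with array weights, and 1 to 4 without 1 array. Among the other listed pathway genes 1 passed, against 2 with scaling to the median, 16 with array weights, and 0 with quantile normalization, the deposited values, no filter, either block, or any 1 array left out. Scaling to the median gave medians of 0.36 for all 43 genes, 0.38 for uptake, 0.50 for activation, 0.36 for the carnitine shuttle, 0.38 for the spiral, 0.39 for electron transfer and 0.32 for storage, since it moved the median of all genes to 0.37, and at an unadjusted p under 0.05 it gave 1561 genes higher and 241 lower, where the 75th percentile gave 233 and 1501 and quantile normalization 487 and 783. Without 1 array the pathway median ran from -0.16 to 0.03, uptake from -0.15 to -0.01, activation from 0.03 to 0.27, the carnitine shuttle from -0.18 to 0.10, the spiral from -0.15 to 0.12, electron transfer from -0.13 to 0.10 and storage from -0.23 to -0.03. Apart from the left-out arrays and the scaling, the cause of these shifts was not tested. The number of arrays limits the precision.

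Deviations from the genotype means correlated at -0.22, -0.05 and 0.04 for replicate numbers 1, 2 and 3 over 21888 genes. Such values, from 3 arrays per genotype, cannot show whether the replicate numbers pair the samples. The first replicates of both genotypes shared slide 1. With the replicate number as a block 1 gene passed over the whole array, 0 among the other listed pathway genes and 0 of the 43. It ended the call of Angptl4 and changed no call among the 43.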

Other observations

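Values of some genes of lipid synthesis outside the 44 follow. They were picked after their values were seen, from lists with about even splits (32 higher and 34 lower of 66, and 9 higher and 11 lower of 20), and none passed the correction. Scd2, a desaturase, read 2.30, 1.55 and 1.80 in wild type and 2.86, 3.14 and 2.95 in knockout, without overlap (difference 1.09, SE 0.22, unadjusted p = 0.00167, adjusted p = 0.611 by limma). Srebf1, the transcription factor best known for driving lipogenic genes, read -0.28, -0.57 and -0.45 in wild type and 0.24, 0.19 and 0.02 in knockout (difference 0.58, SE 0.15, adjusted p = 0.614). Srebf2, its relative in cholesterol synthesis, also did not overlap (difference 0.63, SE 0.22, adjusted p = 0.614). Scd1 (0.97, SE 0.47), Acaca (0.23, SE 0.19), Elovl6 (0.37, SE 0.37) and Fasn (0.13, SE 0.20) overlapped between genotypes. Gpam (-0.43, SE 0.17), Agpat2 (-0.23, SE 0.21) and Elovl1 (-0.15, SE 0.21), also of lipid synthesis, read lower. Klf5, a factor that acts on Ppara in heart, differed by -0.62 (SE 0.23, adjusted p = 0.614), and Mlxipl by -0.33 (SE 0.17, adjusted p = 0.669).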
